A study of Mus musculus with 3 samples.

Results

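The genes described here encode the machinery that makes ribosomes in the nucleolus, together with a few abundant nucleolar proteins and the transcription factor Myc. They were taken by symbol, as every listed gene whose name begins with Nop, Utp, Rrp, Nol, Exosc or Imp and a digit, the RNA polymerase I genes Polr1a to Polr1e, and Rrs1, Ncl, Npm1, Fbl, Bop1, Pes1 and Myc. This gave 57 of the 11419 listed genes. The rule reads only symbols and uses no measured value.

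The libraries were made from messenger RNA of bone marrow cells of C57BL/6 mice, an inbred strain. The sort kept cells with Cd11b, F4/80 and CD169 on their surface and without CX3CR1, which the labels call macrophages. There was 1 group of 3 libraries with no treatment and no comparison population, and neither age nor genotype beyond the strain was labelled. Whether the libraries stem from separate mice is not labelled, so p-values cover the spread of these 3 libraries alone, and that spread may be technical.

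Ribosome production starts when RNA polymerase I transcribes the ribosomal DNA into a long precursor RNA. Small nucleolar ribonucleoproteins (snoRNPs) guide the chemical modification of this RNA, the small subunit processome and the large subunit factors fold and cut it, and the exosome trims its ends. MYC, which binds DNA as a dimer with MAX, is known to activate many of these genes. In the marrow, ribosome production is known to be high in dividing precursors and low in mature granulocytes.

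The unit is CPM, a gene's reads scaled to 1000000 reads over all listed genes. A library is called apart above or below for a gene where the exact 95% Poisson interval of its count lies wholly above or below those of both other libraries. The libraries held 5150020 reads (replicate 1), 40149274 (replicate 2) and 37604930 (replicate 3), so a gene at 10 CPM had 51.5, 401 and 376 reads. With a limit of 3 reads, a count of 0 allows up to 0.583, 0.0747 and 0.0798 CPM in the same order, for counting error only. The exact 95% interval of a count of 0 is wider and reaches 0.716 CPM in replicate 1. Replicate 1, the shallowest, also stood apart in marker genes: the 7 listed basophil genes summed to 1530 CPM there, against 746 and 813 CPM in replicates 2 and 3, and the 10 eosinophil genes summed to 639 CPM, against 1101 and 1511 CPM. The labelled cell type was only partly matched. Of the genes of the sorted proteins, Itgam (CD11b) was at 483, 460.3 and 565 CPM and Adgre1 (F4/80) at 18.6, 26.5 and 21.4 CPM, Cx3cr1 was at 0, 0.423 and 0 CPM, and Siglec1, the gene of CD169, was at 0.388, 3.66 and 4.57 CPM in replicates 1, 2 and 3. All 16 genes of the late neutrophil list were above 10 CPM. They took 23.0%, 23.3% and 19.6% of reads in replicates 1, 2 and 3. The list includes specific granule genes of earlier stages, such as Ngp (mean 55067 CPM), Ltf (28909 CPM) and Camp (16571 CPM). These shares are therefore not those of mature cells alone. Of 15 core macrophage genes, 4 were above. All 18 proliferation genes (median 122 CPM) and all 9 listed primary granule genes of promyelocytes (median 648 CPM) were above 10 CPM too. Of all genes tested, 58.8% were. In such bulk samples, fewer cells of a type and less RNA per cell cannot be told apart.

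The stretches of DNA before the transcription starts of 6 members are shown first, because MYC with MAX binds the palindrome CACGTG and because these members either hold that word or carry the results on levels. Each line gives the 250 bases before the annotated start, from the 5′ to the 3′ end of the gene's strand, from RefSeq on build GRCm38.p6. Capitals mark CACGTG. Ncl was the highest member, and Polr1a and Polr1b encode the largest subunits of RNA polymerase I but differed in level. Nop2, Imp4 and Nol11 stand for the members that hold the word.
Ncl (chr1:86359456-86359705, minus strand): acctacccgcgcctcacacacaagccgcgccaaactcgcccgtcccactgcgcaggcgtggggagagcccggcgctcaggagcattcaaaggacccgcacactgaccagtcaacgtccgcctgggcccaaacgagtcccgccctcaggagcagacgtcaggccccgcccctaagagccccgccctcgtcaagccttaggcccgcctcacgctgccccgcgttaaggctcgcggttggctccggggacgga
Polr1a (chr6:71908803-71909052, plus strand): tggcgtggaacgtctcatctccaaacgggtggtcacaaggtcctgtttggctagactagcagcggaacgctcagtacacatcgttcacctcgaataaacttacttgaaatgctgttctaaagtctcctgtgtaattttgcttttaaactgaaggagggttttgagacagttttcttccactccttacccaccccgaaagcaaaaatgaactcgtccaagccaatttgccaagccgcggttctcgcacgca
Polr1b (chr2:129100746-129100995, plus strand): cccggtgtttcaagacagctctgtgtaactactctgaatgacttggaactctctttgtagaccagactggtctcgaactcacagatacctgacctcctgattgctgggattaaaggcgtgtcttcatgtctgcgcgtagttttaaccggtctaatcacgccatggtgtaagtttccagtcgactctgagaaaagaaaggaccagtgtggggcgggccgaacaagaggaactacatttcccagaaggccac
Nop2 (chr6:125131633-125131882, plus strand): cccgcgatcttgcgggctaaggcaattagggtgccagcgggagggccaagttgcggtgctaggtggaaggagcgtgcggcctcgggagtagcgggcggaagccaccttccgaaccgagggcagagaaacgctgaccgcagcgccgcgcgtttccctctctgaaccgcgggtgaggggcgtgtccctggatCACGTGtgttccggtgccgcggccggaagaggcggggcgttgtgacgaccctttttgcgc
Imp4 (chr1:34439579-34439828, plus strand): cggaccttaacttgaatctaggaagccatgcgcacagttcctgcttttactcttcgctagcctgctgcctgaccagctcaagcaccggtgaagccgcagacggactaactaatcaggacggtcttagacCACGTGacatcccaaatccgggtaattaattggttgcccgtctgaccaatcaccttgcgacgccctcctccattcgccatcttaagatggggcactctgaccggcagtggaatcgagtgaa
Nol11 (chr11:107189382-107189631, minus strand): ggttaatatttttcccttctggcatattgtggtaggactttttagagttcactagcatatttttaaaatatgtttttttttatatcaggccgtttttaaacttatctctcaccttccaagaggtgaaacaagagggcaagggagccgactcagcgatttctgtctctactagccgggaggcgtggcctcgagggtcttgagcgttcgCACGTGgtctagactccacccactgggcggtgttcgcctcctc

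RefSeq windows were found for 44 members, and for 8727 of all listed genes. The members without one were Bop1, Exosc4, Exosc9, Fbl, Myc, Nol6, Nop53, Npm1, Rrp12, Rrs1, Utp11, Utp23 and Utp6. In the window of 250 bases before to 50 bases after a start, CACGTG occurred in 10 of the 44 members (22.7%) and in 12.1% of all listed genes with a window. In the 250 bases before the start alone the shares were 15.9% (7 members) and 10.3%. Of the further genes tied to ribosome production described below, 124 had a window. Their shares were 18.5% (23 genes) in the wider window and 8.87% (11 genes) before the start alone. The word began 60 bases before the start of Nop2, 121 before that of Imp4 and 43 before that of Nol11, and the windows of Ncl, Polr1a and Polr1b did not hold it. CCGGAAG, a core of sites of the ETS family of transcription factors, was searched on both strands. In the wider window it occurred in 13 members (29.5%), 50 further genes (40.3%) and 21.8% of listed genes. Before the start alone it occurred in 9 members (20.5%), 36 further genes (29.0%) and 16.9% of listed genes. A match is a word in the sequence and no measurement of binding.

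The ribosome biogenesis genes were neither unusually abundant nor unusually scarce in these libraries. Each gene was tested against a fixed level of 10 CPM with limma on log2(CPM + 1), the only kind of test that 1 group allows, and called at an adjusted p under 0.05 over 11123 genes. Of the 57 members, 33 were above 10 CPM, 12 below and 12 not called. The share above was 57.9%, beside 58.8% of all genes tested, and for calls below 10 CPM the share of all genes was 28.3%. The median member was at 15.4 CPM and the median gene tested at 20.9 CPM (SD, where given below, is over n = 3 libraries). The SE and p-values of limma use a variance moderated toward the trend over all genes tested, so an SE is not a gene's own spread. Per kb of exons, the medians were 3.83 and 4.62 CPM. All members together took 0.149%, 0.130% and 0.141% of reads in replicates 1, 2 and 3. All 57 passed the filter of 10 reads.

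**Figure D1:**
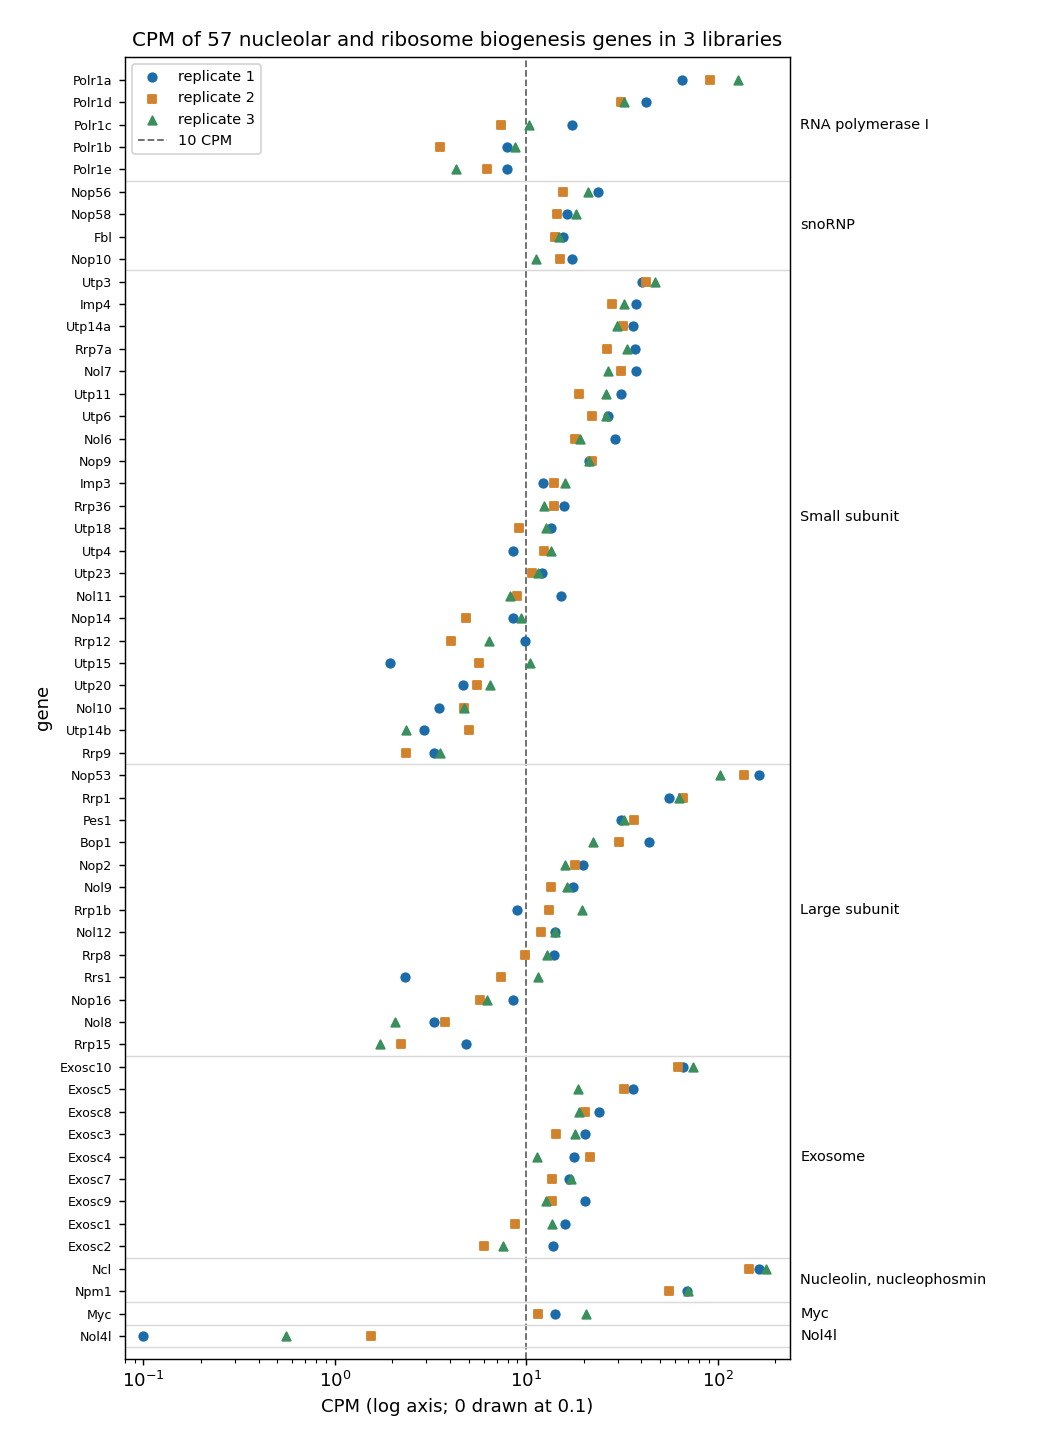
CPM of each of the 57 genes on a log axis, with 1 point per library (circle, replicate 1; square, replicate 2; triangle, replicate 3), grouped by role; the dashed line is 10 CPM and a value of 0 is drawn at 0.1. Ncl, Nop53 and Polr1a lie at the right end, and Rrs1 and Utp15 have their replicate 1 points far to the left of the others.

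Nucleolin and nucleophosmin, the abundant nucleolar phosphoproteins, were among the highest members. Ncl (ENSMUSG00000026234, GRCm38 chromosome 1, 86344719 to 86359400, minus strand) encodes nucleolin, which binds ribosomal DNA and precursor RNA. It was at 165, 145 and 180 CPM in replicates 1, 2 and 3. All libraries were far above 10 CPM, with replicate 2 lowest (163 ± 17.4 CPM, log2 level 3.89 over 10 CPM, SE 0.12, limma adjusted p = 8.59e-19). Npm1 (ENSMUSG00000057113, chromosome 11, 33152287 to 33163206, minus strand) encodes nucleophosmin, a histone and ribosomal protein chaperone. It was at 69.1, 56.0 and 70.2 CPM, again with replicate 2 lowest (log2 level 2.58, SE 0.13, limma adjusted p = 3.45e-14). Per kb of exons the order was reversed: Npm1 was at 24.4 ± 2.97 CPM per kb and Ncl at 16.0 ± 1.71, a ratio of 1.60, 1.48 and 1.49 in replicates 1, 2 and 3. Npm1 has processed pseudogenes, and how reads shared with them were counted was not given in the sources used here.

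The RNA polymerase I genes were strongly unequal. Polr1a and Polr1b encode the largest subunits, which form the active centre together, Polr1c and Polr1d encode subunits shared with RNA polymerase III, and Polr1e encodes a subunit that acts in initiation. Polr1a (ENSMUSG00000049553, chromosome 6, 71909053 to 71984935, plus strand) was at 64.9, 90.8 and 128 CPM in replicates 1, 2 and 3 (log2 level 3.06, SE 0.15, limma adjusted p = 9.72e-15). The counting intervals of its libraries were apart, with replicate 1 lowest and replicate 3 highest. Polr1b (ENSMUSG00000027395, chromosome 2, 129100995 to 129126594, plus strand) was at 7.96, 3.56 and 8.72 CPM, below 10 CPM in every library (log2 level -0.58, SE 0.26, limma adjusted p = 0.0430). That call was lost in edgeR and DESeq2 on the reads (adjusted p = 0.0954 and 0.0649) and in limma without replicate 2 (0.493) or replicate 3 (0.0510).

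Per kb of exons, Polr1a exceeded Polr1b 3.98-fold, 12.5-fold and 7.17-fold in replicates 1, 2 and 3, a log2 difference of 2.83 ± 0.82 (SD, n = 3). With the exons of the basic transcript set alone the log2 difference was 2.87. The pair was chosen after its values were seen, and the difference was in the same direction in each library. The exons of Polr1a also overlap those of an antisense gene by 185 bases, 1.56% of its exonic length. Polr1d was at 42.3, 31.2 and 32.4 CPM and was highest of the 5 per kb (11.6 ± 2.01 CPM per kb, log2 level against 10 CPM 1.71, limma adjusted p = 1.07e-09). Polr1c, at 17.3, 7.37 and 10.4 CPM, was not called (limma adjusted p = 0.603). Its replicate 1 value lay apart above the others. Polr1e, at 7.96, 6.23 and 4.28 CPM, was below 10 CPM (log2 level -0.65, SE 0.25, limma adjusted p = 0.0199), a call lost without replicate 2 (0.140) or replicate 3 (0.151).

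**Figure D2:**
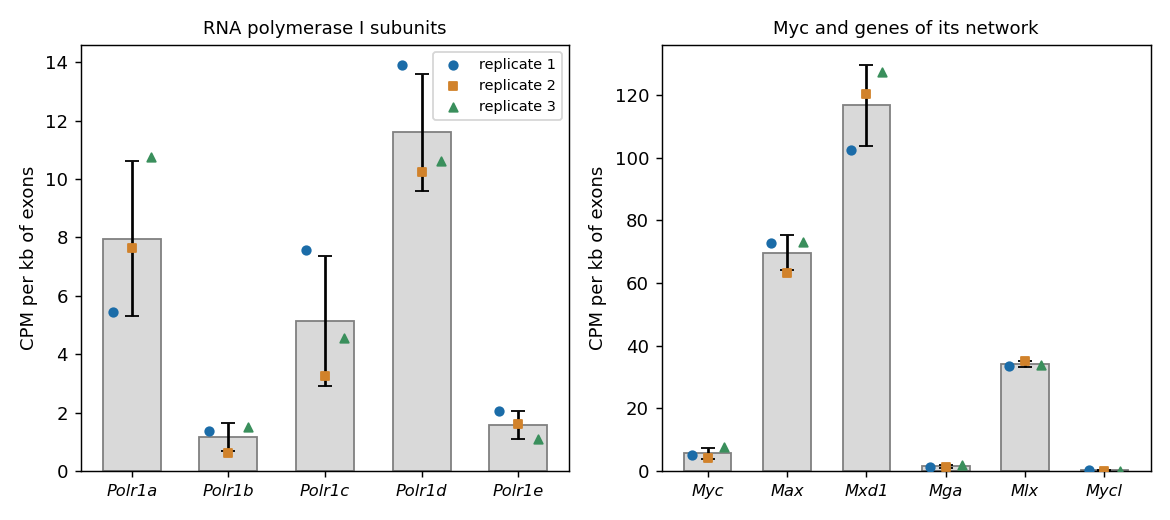
CPM per kb of exons for the 5 RNA polymerase I genes (left) and for Myc and 5 genes of its network (right); bars are means over 3 libraries, error bars are SD and points are libraries. Polr1a stands well above Polr1b, and Mxd1 and Max stand far above Myc.

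The 4 snoRNP genes were all above 10 CPM by small margins, beside 58.8% of all genes, and lay close together in CPM. Per kb of all exons they ranged from 1.52 CPM (Nop58) to 13.1 CPM (Nop10). Fbl encodes fibrillarin, the methyltransferase of the box C/D snoRNPs, and Nop56 and Nop58 encode its scaffold partners, while Nop10 encodes a small core protein of the pseudouridylating H/ACA snoRNPs. Fbl was at 15.5, 14.1 and 14.9 CPM, among the narrowest spreads of the members (14.9 ± 0.708 CPM, log2 level 0.53, SE 0.19, limma adjusted p = 0.0147). Nop56 was at 23.7, 15.5 and 21.1 CPM, with replicate 2 apart below the others (log2 level 0.92, SE 0.18, limma adjusted p = 9.11e-05). Nop58 was at 16.3, 14.4 and 18.2 CPM, with overlapping counting intervals between replicate 1 and the others (limma adjusted p = 0.00312). Nop10 was at 17.3, 15.1 and 11.3 CPM, with replicate 3 apart below (limma adjusted p = 0.0306). Calls of Fbl, Nop58 and Nop10 were lost in limma without replicate 2 (adjusted p = 0.109, 0.0515 and 0.230), and that of Nop10 also without replicate 1 (0.143). Without replicate 2 their log2 levels were 0.56, 0.73 and 0.45, against 0.53, 0.65 and 0.48 with all libraries.

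In CPM the box C/D trio differed little, but per kb the order depended on which exons were counted. Per kb of all annotated exons, Fbl was at 3.53 CPM, Nop56 at 4.91 and Nop58 at 1.52. With the exons of the basic transcript set Fbl rose to 12.4 and Nop56 to 10.5, while Nop58 stayed at 1.71 CPM per kb. The annotated exons of Nop56 and Nop58 include snoRNA genes, which lie in introns of their hosts.

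Small subunit genes covered a wide range, with 11 of 22 above 10 CPM, 6 below and 5 not called (median 12.9 CPM), near the 58.8% above and 28.3% below of all genes. Utp3 (ENSMUSG00000070697, chromosome 5, 88554462 to 88556090, plus strand), a processome factor encoded by a gene without introns, was highest in CPM and per kb. It was at 40.4, 42.4 and 47.0 CPM in replicates 1, 2 and 3, and the counting intervals overlapped between replicate 1 and each of the others (log2 level 2.01, SE 0.15, limma adjusted p = 1.43e-11). Imp3 and Imp4 encode partners that bind the U3 snoRNA with the protein MPHOSPH10. Imp3 was at 12.2, 14.0 and 16.0 CPM (limma adjusted p = 0.0400, lost without replicate 2 or 3 at 0.203 and 0.172), and Imp4 was at 37.7, 27.9 and 32.6 CPM (limma adjusted p = 3.78e-09). Per kb the order turned, with Imp3 at 15.2 and Imp4 at 3.83 CPM per kb.

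Nol7, a nucleolar factor of the same pathway, was at 37.5, 31.3 and 26.8 CPM, with replicate 3 apart below the others (limma adjusted p = 7.40e-09). Utp14a, whose yeast counterpart activates a processome helicase, was at 36.3, 31.9 and 29.9 CPM (limma adjusted p = 2.77e-09). Utp14b, a retrogene copy of Utp14a known for its need in spermatogenesis, was at 2.91, 5.06 and 2.37 CPM, below 10 CPM (log2 level -1.35, SE 0.28, limma adjusted p = 0.000152). The parent gene was higher than the copy in each library. The exons of Utp14b overlap those of Acsl3 on the same strand by 244 bases, and how reads that match both copies were counted was not given in the sources used here. The other members above 10 CPM were Rrp7a, Utp11, Utp6, Nol6, Nop9 and Rrp36, with means from 14.0 CPM (Rrp36) to 32.3 CPM (Rrp7a). The call of Rrp36 was lost without replicate 1, 2 or 3 (limma adjusted p = 0.134, 0.203 and 0.0508). Nop9 differed least between libraries (21.4, 22.2 and 21.3 CPM).

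The small subunit genes below 10 CPM were Utp15, Utp20, Rrp9, Nol10, Rrp12 and Utp14b. Utp15, of the early-binding UTPA complex, was at 1.94, 5.68 and 10.5 CPM, from 10, 228 and 395 reads, with all 3 counting intervals apart. Its call (limma adjusted p = 0.0134) was lost in edgeR and DESeq2 on the reads (adjusted p = 0.0968 and 0.0646). It was also lost in limma without a filter on low values (0.144) and without replicate 1 or 2 (0.243 and 0.192). Utp4 and Nol11, of the same UTPA complex, were not called, at 8.54, 12.5 and 13.5 CPM for Utp4 and at 15.1, 8.94 and 8.22 CPM for Nol11, so replicate 1 was lowest for Utp15 and Utp4 and highest for Nol11. Utp20, a very large scaffold protein, was at 4.66, 5.50 and 6.49 CPM and, per kb, at 0.544 (limma adjusted p = 0.00768, lost without replicate 2 at 0.0848). Rrp9, the U3-specific protein, was at 3.30, 2.37 and 3.54 CPM (limma adjusted p = 6.21e-05), and Nol10 was at 3.50, 4.71 and 4.76 CPM (limma adjusted p = 0.000813). These 2 calls held under each alternative at 10 CPM.

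Rrp12, which acts in the export of precursor subunits, was at 9.90, 4.06 and 6.38 CPM, with replicate 1 apart above and replicate 2 apart below (limma adjusted p = 0.0442). The call of Rrp12 was lost in edgeR and DESeq2 on the reads (adjusted p = 0.0863 and 0.0552). In limma it was lost with TMM scaling (0.0501) or DESeq2 size factors (0.0526) and without a filter on low values (0.125). Without replicate 2 (0.442) or replicate 3 (0.141) it was also lost in limma. Among those not called were also Utp23 (11.4 ± 0.630 CPM), Utp18 (11.8 ± 2.29) and Nop14 (7.60 ± 2.43).

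Large subunit genes were spread most widely in mean level, from 2.93 to 135 CPM, with 6 of 13 above 10 CPM, 3 below and 4 not called (58.8% above and 28.3% below for all genes). Nop53 (ENSMUSG00000041560, chromosome 7, 15936183 to 15946074, minus strand) encodes a protein that brings the exosome to large subunit precursors. It was at 165, 138 and 103 CPM in replicates 1, 2 and 3, with replicate 1 apart above and replicate 3 apart below (log2 level 3.60, SE 0.13, limma adjusted p = 3.21e-17). Per kb it was the highest of all 57 members, at 35.2 ± 8.05 CPM per kb. Rrp1 was at 55.9, 66.0 and 62.6 CPM (limma adjusted p = 5.59e-14), while its paralogue Rrp1b was at 8.93, 13.2 and 19.7 CPM and was not called (limma adjusted p = 0.112). The counting intervals of all 3 libraries were apart for Rrp1b, and it was above 10 CPM without replicate 1 (limma adjusted p = 0.00441) and in edgeR and DESeq2 on the reads (0.0324 and 0.0408).

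Pes1 and Bop1 encode partners in the PeBoW complex, which matures the large subunit RNA together with WDR12. Pes1 was at 31.3, 36.7 and 32.4 CPM (log2 level 1.64, SE 0.15, limma adjusted p = 1.63e-09). Bop1 was at 43.9, 30.5 and 22.2 CPM (log2 level 1.54, SE 0.18, limma adjusted p = 4.88e-08). Replicate 1 lay apart above and replicate 3 apart below. Per kb the means were close, at 11.1 ± 0.951 CPM per kb for Pes1 and 10.9 ± 3.70 for Bop1. Wdr12, the other partner, was at 8.16, 5.75 and 13.1 CPM, not divided by length, and not called. Per kb, Pes1 exceeded Wdr12 15.2-fold, 25.2-fold and 9.75-fold in replicates 1, 2 and 3. The geometric mean ratio was 15.5, and 14.2 with the basic transcript set. Nop2, an RNA methyltransferase, and Nol9, an RNA kinase, were the remaining genes above (17.9 ± 1.91 and 15.8 ± 2.05 CPM). The call of Nol9 was lost without replicate 2 (log2 level 0.70, against 0.60 with all libraries, limma adjusted p = 0.0568).

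Rrs1 (ENSMUSG00000061024, chromosome 1, 9545408 to 9547455, plus strand), which brings the 5S RNA particle into the large subunit, was at 2.33, 7.37 and 11.5 CPM, from 12, 296 and 434 reads. The exact counting intervals were 1.20 to 4.07, 6.56 to 8.26 and 10.5 to 12.7 CPM, and none overlapped another. The call of Rrs1 below 10 CPM (log2 level -0.64, SE 0.30, limma adjusted p = 0.0488) was lost in most alternatives. It was lost in edgeR and DESeq2 on the reads (adjusted p = 0.221 and 0.180). In limma it was lost with TMM scaling (0.0580) or DESeq2 size factors (0.0605) and without a filter on low values (0.238). Without replicate 1 (0.709) or replicate 2 (0.253) it was also lost in limma. Rrp15 was at 4.85, 2.22 and 1.73 CPM (limma adjusted p = 5.69e-05) and Nol8 at 3.30, 3.76 and 2.07 CPM (limma adjusted p = 6.24e-05), both below. Nop16 (6.83 ± 1.51 CPM), Rrp8 (12.2 ± 2.16) and Nol12 (13.4 ± 1.27) were not called, although Nop16 was below without replicate 1 (limma adjusted p = 0.0261) and in DESeq2 on the reads (0.0170). Nol12 was above in edgeR and DESeq2 on the reads (adjusted p = 0.0469 and 0.0101).

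Of the 9 listed exosome subunit genes, 7 were above 10 CPM (58.8% of all genes were) and none of the 9 below (28.3% of all genes). Exosc10 (ENSMUSG00000017264, chromosome 4, 148558429 to 148582401, plus strand) encodes the nuclear exonuclease that docks on the exosome core. It was at 65.8, 61.9 and 74.6 CPM and exceeded every core subunit gene in each library (log2 level 2.63, SE 0.13, limma adjusted p = 1.63e-14). The core genes had means between 9.13 CPM (Exosc2) and 29.1 CPM (Exosc5). Of the cap genes, Exosc3 was above 10 CPM (20.4, 14.3 and 18.1 CPM, limma adjusted p = 0.000962), while Exosc1 (15.9, 8.74 and 13.7 CPM) and Exosc2 (13.8, 6.05 and 7.55 CPM) were not called (limma adjusted p = 0.212 and 0.458).

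The ring of the exosome core is built of 6 subunits, of which 5 genes were listed, and all 5 were above 10 CPM. Exosc5 was at 36.3, 32.4 and 18.6 CPM and Exosc4 at 17.7, 21.4 and 11.4 CPM, both with replicate 3 apart below the others. Exosc8 was at 23.9, 20.2 and 18.9 CPM, Exosc9 at 20.2, 13.6 and 12.7 CPM and Exosc7 at 16.7, 13.7 and 17.1 CPM. Calls of Exosc4, Exosc7 and Exosc9 were lost without replicate 2 (limma adjusted p = 0.211, 0.0565 and 0.111), and that of Exosc9 also without replicate 1 (0.127). Without replicate 2 their log2 levels were 0.47, 0.70 and 0.63, against 0.66, 0.61 and 0.56 with all libraries. Per kb the lead of Exosc10 depended on the exons counted: over Exosc7 it was 7.14-fold with all annotated exons and 1.61-fold with the basic transcript set. Exonic overlap with a neighbour on the opposite strand could add reads where strand was not used, and covered 19.8% of Exosc4 (Oplah), 10.8% of Exosc9 (Ccna2) and, in the small subunit group, 29.9% of Nop9 (Cideb), 16.45% of Nol7 (Ranbp9) and 12.5% of Rrp7a (Serhl).

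Myc (ENSMUSG00000022346, chromosome 15, 61985391 to 61990374, plus strand) was present at a modest level. It was at 14.2, 11.5 and 20.5 CPM, with replicate 3 apart above the others (15.4 ± 4.63 CPM, log2 level 0.54, SE 0.20, limma adjusted p = 0.0180). The call was lost without replicate 2 (log2 level 0.72, limma adjusted p = 0.0702) and without replicate 3 (log2 level 0.32, limma adjusted p = 0.218). Of the 11 other listed genes of its network, 10 were above 10 CPM, beside 58.8% of all genes. Max, the partner of MYC, was at 262, 228 and 263 CPM, and Mxd1, whose product competes with MYC for MAX and represses its targets, was at 725, 850.5 and 902 CPM (limma adjusted p = 3.63e-23). Per kb, Mxd1 exceeded Myc 19.6-fold, 28.4-fold and 16.9-fold and Max exceeded it 14.0-fold, 15.0-fold and 9.67-fold in replicates 1, 2 and 3, pairs chosen after their values were seen. With the basic transcript set the geometric mean ratio of Max to Myc was 20.9, against 12.6. Mlx was at 68.3 ± 1.82 CPM and Mga, a further MAX partner, at 22.4 ± 6.48, but per kb Mga was at 1.46 CPM, under Myc at 5.67, while Mycl was below 10 CPM at 0.773 ± 0.891. In this bulk RNA it was not tested whether Myc and Mxd1 came from the same cells.

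Nol4l, which shares only the name prefix, was below 10 CPM. It had 0 reads in replicate 1 (up to 0.583 CPM by the limit of 3 reads), and was at 1.54 CPM in replicate 2 and 0.558 CPM in replicate 3 (limma adjusted p = 3.21e-07).

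In lists of further genes tied to ribosome production the share above 10 CPM was also near that of all genes. Of 158 symbols in these lists, 146 were listed. Of these, 86 were above 10 CPM (58.9%, beside 58.8% of all genes), 31 below and 29 not called. The lists include the 11 Myc network genes described above, of which 10 were above 10 CPM. They also include the cytoplasmic helicase gene Skiv2l, so the share is not that of ribosome production genes alone. In the RNA polymerase I machinery 9 of 18 were above, led per kb of all exons by Ubtf (135 ± 20.8 CPM), the architectural factor of ribosomal DNA, Znrd1 (12.1 ± 2.50, not called) and Top1 (116 ± 28.7), and lowest on that scale for Taf1a (2.00 ± 0.459, below) and Taf1d (10.7 ± 5.18, not called). With the basic transcript set Top1 (30.1 CPM per kb) was above Ubtf (22.3), and Taf1d was at 8.55 CPM per kb, against 1.20 with all exons. Further small subunit factors had 22 of 38 above, with the kinase gene Riok3 at 204 ± 25.4 CPM, Ngdn at 35.1 ± 1.15 and Fcf1 at 13.7 ± 2.78 (not called), and with the acetyltransferase gene Nat10 (4.62 ± 1.24) and the methyltransferase gene Dimt1 (1.96 ± 0.153) below. Further large subunit factors had 32 of 53 above, with Eif6, which keeps subunits from joining too early, at 90.0 ± 8.71 CPM, Sbds, which helps to release it, at 40.6 ± 8.05 and Senp3 at 50.9 ± 5.59. Urb1 (1.49 ± 0.961) and Noc3l (1.75 ± 1.19) were below.

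Exosome partners had 10 of 14 above 10 CPM and 1 below. The cytoplasmic helicase gene Skiv2l was at 150 ± 4.35 CPM, Zcchc8 at 92.8 ± 9.36 and the exonuclease gene Xrn2 at 58.8 ± 15.2, while Ttc37 was below at 4.40 ± 0.509 and the catalytic gene Dis3 was not called at 12.7 ± 4.27. Of the further snoRNP genes, 3 of 12 were above and 7 below, beside 58.8% and 28.3% of all genes. Above were Pih1d1 (70.5 ± 15.4 CPM) and Ruvbl2 (63.4 ± 9.73), which act in snoRNP assembly, and the H/ACA protein gene Nhp2 (21.9 ± 6.53), while the assembly genes Naf1 (1.88 ± 1.60) and Znhit6 (1.16 ± 1.00) were below.

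Among the libraries, the members were most often highest in replicate 1 and lowest in replicate 2. Of the 57 members, 32 (56.1%) had their highest CPM in replicate 1, beside 32.1% of all genes, 7 in replicate 2 (19.7% of all genes) and 18 in replicate 3 (48.2% of all genes). Lowest values fell in replicate 2 for 28 members, beside 30.1% of all genes, in replicate 3 for 17, beside 25.9%, and in replicate 1 for 12, beside 44.0%. The median member was 0.22 higher in replicate 1 than in the mean of the other libraries on the log2(CPM + 1) scale, while the median gene tested was 0.07 lower (-0.07). In replicate 2 the medians were -0.18 for members and -0.03 for all genes, and in replicate 3 they were 0.04 and 0.13. The member median of replicate 3 turned to -0.08 with either TMM or DESeq2 scaling, which also brought the median of all genes there to 0.01. For the 146 genes of the further lists, Myc network included, the medians were 0.01, -0.08 and 0.13 in replicates 1, 2 and 3. Of these genes, 56 were highest in replicate 1 and 68 in replicate 3. Their lists differed: in replicate 1 the median was 0.30 for further snoRNP genes, 0.17 for small subunit factors, 0.10 for large subunit factors, -0.04 for the Myc network, -0.09 for the RNA polymerase I machinery and -0.17 for exosome partners. The libraries have no order, so no trend is read from them, and with 1 library each these differences have no test.

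**Figure D3:**
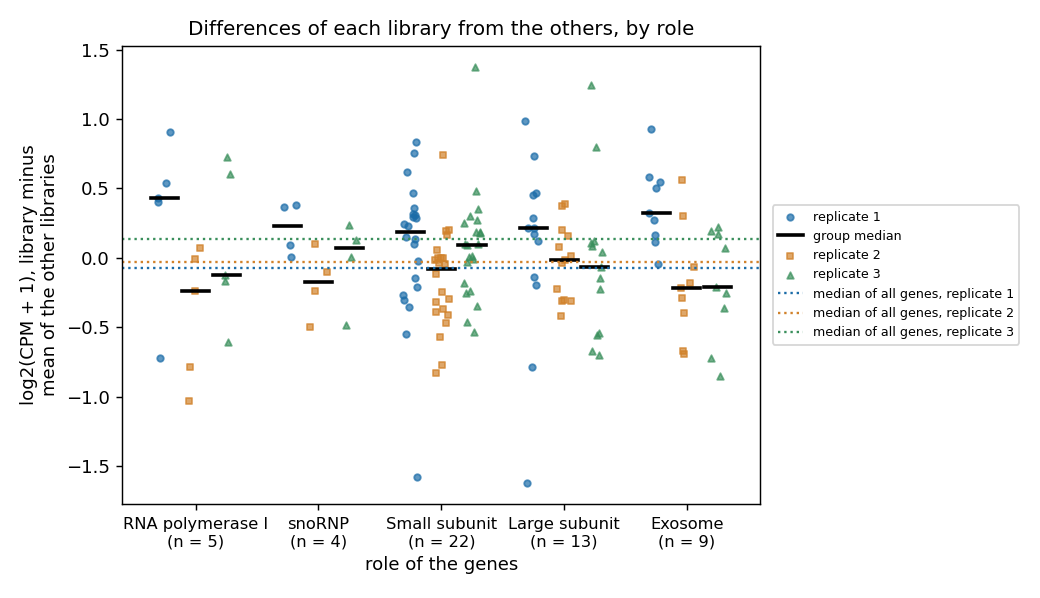
Log2(CPM + 1) of each library minus the mean of the other libraries, with 1 point per gene and library, for the 5 larger roles; black bars are group medians and dotted lines are medians of all genes tested. In replicate 1 the median of each of these roles lies above the dotted line of that library.

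Counting error alone was smaller than many of these differences. The 95% Poisson interval of replicate 1 lay above those of both other libraries for 10 members, beside 10.9% of all genes, and below both for 4 (Polr1a, Rrs1, Rrp1b and Utp15), beside 17.5%. Replicate 2 lay apart below for 14 members, beside 9.31% of all genes, and apart above for 1 (Nol4l), beside 4.7%. Replicate 3 lay apart above for 5 members, beside 25.5%, and apart below for 7, beside 12.2%. Some library lay apart above for 16 of the 57 members, beside 41.1% of all genes, and some library apart below for 25, beside 39.0%. For 24 members no library lay apart, a share not counted over all genes. Intervals narrow as reads rise, and the median CPM was 15.4 for members and 20.9 for all genes tested. The shares were not matched for read number. The highest library was at least 2 times the lowest for 10 members, beside 25.5% of all genes, and the largest such ratios with counts in every library were those of Utp15 (5.41) and Rrs1 (4.95).

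By role, replicate 1 differed from the other libraries by a median of 0.43 for RNA polymerase I genes, 0.32 for exosome genes, 0.23 for snoRNP genes, 0.21 for large subunit genes and 0.19 for small subunit genes on the log2 scale. Replicate 1 was higher than the mean of the others for all 4 snoRNP genes, 8 of 9 exosome genes (Exosc10 at -0.05), 4 of 5 RNA polymerase I genes, 9 of 13 large subunit genes and 14 of 22 small subunit genes. How many of all genes tested were higher in replicate 1 was not counted, and their median difference there was -0.07. Some members of a role differed widely. Polr1a was 0.72 lower in replicate 1 (-0.72) and Polr1c 0.91 higher, and in the large subunit group Rrs1 (-1.62) and Rrp15 (0.98) were at opposite ends.

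Marker lists of several cell types also differed in replicate 1. In replicate 1 the median difference was 2.10 for 7 basophil genes, 0.86 for 7 stem and progenitor genes, 0.39 for 9 primary granule genes of promyelocytes, 0.40 for 13 erythroid genes and 0.06 for 18 proliferation genes. It was 0.53 for 8 B cell genes and 0.21 for 15 core macrophage genes, which summed to 252, 219 and 253 CPM, and -0.01 for 16 late neutrophil genes, -0.30 for 4 T and NK cell genes and -0.87 for 10 eosinophil genes. The primary granule genes summed to 9331, 7417 and 7867 CPM, the stem and progenitor genes to 149.9, 89.9 and 82.1 CPM and the proliferation genes to 3070, 3162 and 3464 CPM in replicates 1, 2 and 3. Highest in replicate 1 were 6 of 7 basophil, 7 of 9 primary granule and 6 of 7 stem and progenitor genes. Among them, Mcpt8 was at 259, 35.4 and 37.4 CPM and Mpo at 3566, 2659.5 and 3355 CPM. Hdc of the basophil list was lowest there, at 552, 609 and 675 CPM. Hlf, a stem and progenitor gene, was also lowest there, at 5.44, 7.17 and 8.35 CPM. In the primary granule list, Cebpe was at 670, 716 and 556 CPM and Gfi1 at 95.5, 76.6 and 101 CPM. Gata2 is in both the stem and progenitor and the basophil list, at 51.7, 10.7 and 2.90 CPM. Without it the 6 other stem and progenitor genes summed to 98.3, 79.2 and 79.2 CPM, with a median difference of 0.74 in replicate 1. None of the basophil, primary granule or stem and progenitor genes was at 0 in any library. Their part in the library differences of the ribosome biogenesis genes was not tested.

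**Figure D4:**
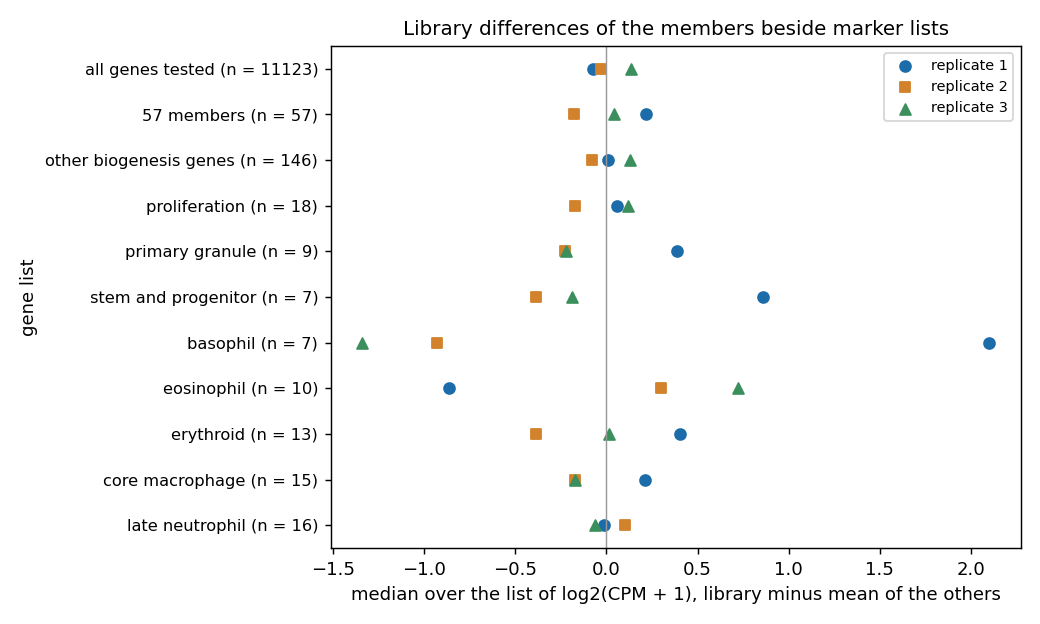
Median over each gene list of log2(CPM + 1) in a library minus the mean of the others, for the 57 members, the further ribosome biogenesis genes, marker lists and all genes tested; n is the number of listed genes. In replicate 1 the members lie at 0.22, above the median of all genes (-0.07). The core macrophage list lies at 0.21, proliferation at 0.06 and the further biogenesis lists (Myc network included) at 0.01. The primary granule list lies at 0.39, erythroid at 0.40, stem and progenitor at 0.86 and basophil at 2.10. Late neutrophil and eosinophil lie at -0.01 and -0.87.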

How the data were processed

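The deposited values were CPM for each gene and library. Per the submitters' processing notes, the authors used FastQC, STAR, featureCounts and edgeR, with builds mm10 and GRCh38. For versions, annotation, strand setting and the gene filter, the sources used here give nothing. Of 11463 entries per file, 44 were exact repeats of another gene entry and were dropped. The CPM of the remaining 11419 genes summed to 1000000, and 100% of values were whole multiples of 1 read within 0.01 reads, so reads were recovered. limma 3.58.1 (R 4.3.3) tested the mean of log2(CPM + 1) against 10 CPM, two-sided, with a pseudocount of 1, trended moderation, Benjamini-Hochberg adjustment and a filter of 10 reads (11123 genes). edgeR 4.0.16 and DESeq2 1.42.0 on recovered reads were alternatives, called 6658 and 6702 genes above 10 CPM against 6539, and were tested on simulated data. Exonic lengths came from GENCODE M21 (GRCm38, the assembly of mm10). Intervals were exact 95% Poisson intervals. Named genes were the 7 symbols chosen outright, the highest and lowest per kb in each role, members not above 10 CPM, the 6 widest ratios between libraries among members of at least 10 CPM, and the ends of each further list; other members are given for completeness. The members and lists were chosen with earlier results of these data known. Gene pairs and the exons of the basic transcript set were chosen after values were seen. edgeR's F statistic was formed from its fitted and null deviances.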

Additional observations from a re-analysis of the deposited data

How the results depend on the processing

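No paired analysis was possible because there was 1 group. A pseudocount of 0.1, TMM scaling and DESeq2 size factors left 33 members above 10 CPM, and edgeR and DESeq2 on the reads each gave 35. Without a filter on low values 28 were above and 7 below. The calls lost there were those of Exosc4, Exosc9, Myc, Imp3 and Nop10 above and of Polr1b, Polr1e, Rrs1, Rrp12 and Utp15 below. Leaving out each replicate gave 23 to 31 members above and 6 to 11 below, 70 to 84 further genes above and 14 to 30 below, and 5884 to 6537 of all genes above and 2423 to 3109 below, lowest each time without replicate 2. At 10 CPM, 23 of the 33 calls above, 6 of the 12 below and 9 of the 12 not called kept their call in all of these alternatives. Against 20 CPM, 15 members were above and 27 below, with 42 and 63 of the further genes, and against 5 CPM 2 members, 8 further genes and 1870 of all genes were below. Levels against 20 CPM had the opposite sign to those against 10 CPM for Fbl (-0.41), Myc (-0.39), Polr1c (-0.80), Exosc3 (-0.19), Exosc4 (-0.28), Exosc7 (-0.33), Exosc1 (-0.65), Imp3 (-0.49), Nop10 (-0.45), Nop56 (-0.013), Nop2 (-0.16), Nol9 (-0.33), Exosc9 (-0.37), Rrp36 (-0.49), Nop58 (-0.28), Rrp8 (-0.68), Nol12 (-0.55), Rrp1b (-0.56), Utp23 (-0.76), Utp4 (-0.77), Utp18 (-0.74), Nol11 (-0.88), Znrd1 (-0.70), Dis3 (-0.67) and Fcf1 (-0.54). Against 5 CPM they did for Rrs1 (0.23), Polr1b (0.29), Polr1e (0.22), Utp20 (0.12), Exosc2 (0.68), Rrp12 (0.30), Utp15 (0.022), Nop16 (0.37), Nop14 (0.47) and Taf1d (0.86), since the level itself had moved. With TMM scaling replicate 2 lay apart above for 2 members and replicate 3 was highest for 11 members, with DESeq2 size factors replicate 3 was highest for 10, and with either it lay apart below for 11. Median CPM per kb with the exons of the basic transcript set, an alternative chosen after seeing the data, was 8.65 for RNA polymerase I, 15.0 for the exosome, 3.89 for the large subunit, 26.0 for Ncl and Npm1, 4.98 for the small subunit and 11.5 for the snoRNPs, and without one replicate the RNA polymerase I median ranged from 3.89 to 6.07. Depth limits replicate 1 most: 10 CPM was 51.5 reads there, against 401 in replicate 2 and 376 in replicate 3.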
